A study of Mus musculus with 6 samples.

Results

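The interleukin-1 family was followed in this series through 8 genes, each measured by 1 probe set on every array. They are the agonists Il1a, Il1b and Il18, the receptor antagonist Il1rn, the soluble binding protein Il18bp, the signalling receptor Il1r1, the decoy receptor Il1r2 and the shared receptor chain Il1rap. The members were listed by family role and matched by symbol, and all 8 of 8 had a probe set among the 25206 on the arrays. The samples were macrophages that collected in the mouse peritoneal cavity 4 days after thioglycollate, an irritant broth, was injected there. The cells were plated, received no treatment, and gave RNA after 10 h in culture. One group came from C57BL/6J mice without Tet2 (Tet2-/-), whose protein oxidises methylated cytosine in DNA, and the other from their wild-type littermates, with 3 arrays each, labelled replicates 4, 5 and 6. The labels call the replicates biological without saying that each was a separate mouse, so each p-value covers the scatter of these 6 arrays, which may be technical in part. The labels give neither the age of the mice nor how the Tet2 allele was made.

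Interleukin-1 alpha and interleukin-1 beta both signal through the Il1r1 product, which pairs with the Il1rap product to recruit the adaptor Myd88 and switch on NF-kB. The Il1rn product occupies the same receptor without signalling, and the Il1r2 product binds the agonists but lacks a signalling domain. Interleukin-18 acts through a separate receptor and is held back by the Il18bp product. Resting macrophages are known to hold little Il1b RNA and to raise it steeply when Toll-like receptors are engaged. Caspase-1 then cuts the interleukin-1 beta and interleukin-18 precursors, so the RNA level is not the amount of secreted cytokine.

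The groups used here follow the sample titles, which the genotype characteristic contradicted for 4 of the 6 samples. Tet2 itself did not settle the contradiction. Its log2 level was 3.80, 4.05 and 3.67 in Tet2-/- replicates 4, 5 and 6, against 4.35, 3.74 and 3.79 in wild-type, a difference of -0.12 (limma adjusted p = 0.998). No source used here gives the deleted part or the part its probes cover, so its level checks nothing about the labels. Every direction below therefore belongs to the libraries labelled Tet2-/- by title. Array medians ran from 2.77 to 2.93, and Tet2-/- replicate 6 had the narrowest interquartile range (2.99, against 3.16 to 3.33 on the other 5 arrays). The macrophage markers were present throughout: all 7 measured, among them Adgre1, Csf1r and Itgam, lay above the median probe set, and their mean log2 level was 8.49 to 9.26 in Tet2-/- and 8.74 to 9.09 in wild-type samples.

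In the Tet2-/- samples the agonist Il1a and the antagonist Il1rn lay lower than in wild-type on every array, Il1b lay higher on average with overlapping values, and the other 5 members overlapped. None of the 8 passed limma's moderated test at an adjusted p of 0.05, where 0.0% of all 25206 probe sets passed, nor at 0.1, where 0.0% passed. At an unadjusted p under 0.05 there were 3 members, against 3.61% of all probe sets. Il1b was the 1 on the higher side (1.71% of all probe sets) and Il1a and Il1rn the 2 on the lower side (1.9%). That count was 1 with any 1 of 3 arrays left out (replicate 5 of Tet2-/-, and replicates 5 and 6 of wild-type), and 0 with groups taken from the characteristic. Groups did not overlap for 2 of the 8 members, both lower in Tet2-/-, where 4.07% of all probe sets were apart in that direction, 3.33% were apart with Tet2-/- higher and 7.41% in either. The median difference of the 8 members was -0.04 on the log2 scale, with 4 higher and 4 lower, and the median over all probe sets was 0.0.

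**Figure D1:**
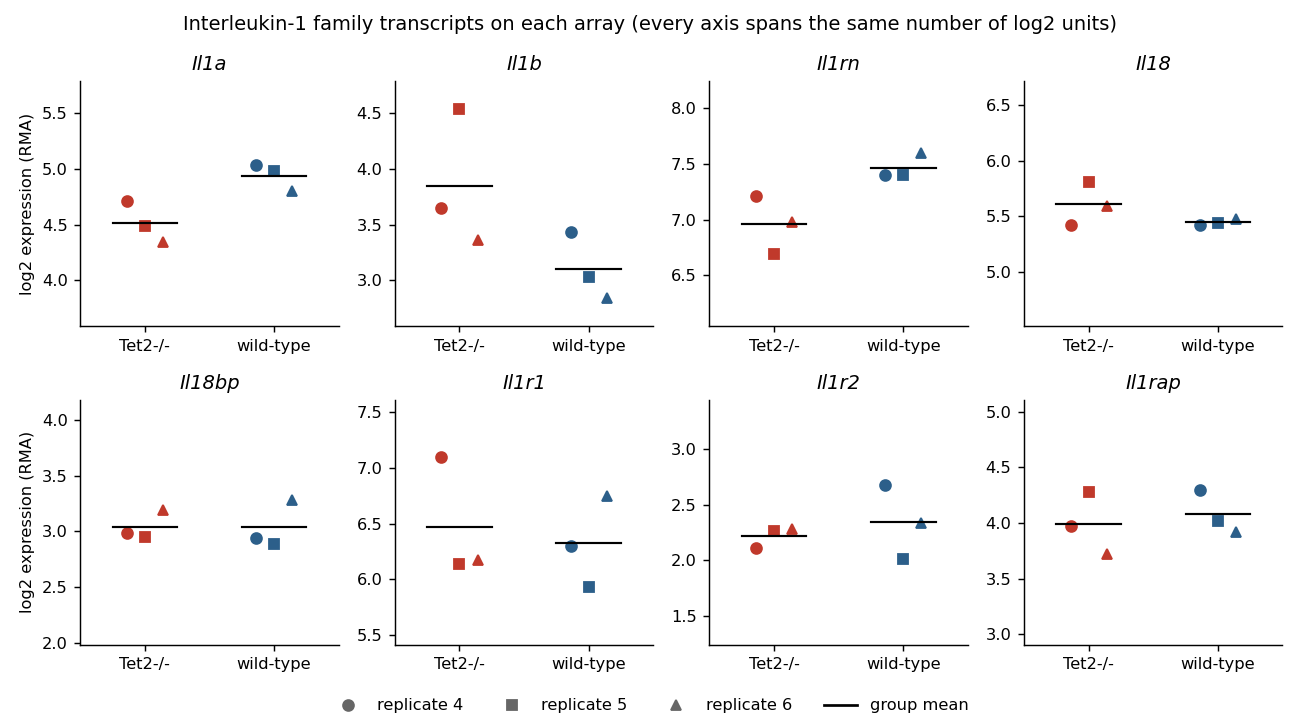
Log2 expression (RMA) of the 8 members, 1 point per array, with Tet2-/- left of wild-type in each panel, marker shape for the replicate number and a bar for the group mean. The Il1a and Il1rn points of Tet2-/- all lie below those of wild-type, whereas the Il1b points overlap and Tet2-/- replicate 5 is the highest at 4.54.

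Il1b encodes the secreted agonist interleukin-1 beta. Its log2 expression was 3.65, 4.54 and 3.36 in Tet2-/- replicates 4, 5 and 6, against 3.43, 3.03 and 2.84 in wild-type replicates 4, 5 and 6. Replicates 4 and 5 of Tet2-/- were above every wild-type array, and replicate 6 lay below wild-type replicate 4. The means were 3.85 ± 0.615 in Tet2-/- and 3.10 ± 0.301 in wild-type (SD, n = 3 each), a log2 difference of 0.75 or 1.68-fold (95% confidence interval 0.09 to 1.41, limma adjusted p = 0.998). Replicate 5 of Tet2-/- carried much of the difference, which was 0.405 without it. Values on these arrays ran from 0.19 to 12.21, and the wild-type Il1b mean of 3.10 sat a little above the array medians.

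Il1a encodes interleukin-1 alpha, the agonist that is active before cleavage. It was at 4.71, 4.49 and 4.34 in Tet2-/-, against 5.04, 4.98 and 4.80 in wild-type. The highest Tet2-/- array stayed below the lowest wild-type array. The log2 difference was -0.43 with a standard error of 0.147 (0.744-fold, 95% confidence interval -0.76 to -0.09, limma adjusted p = 0.998). Il1a and Il1b lie next to each other on chromosome 2 in RefSeq, with 0 protein-coding genes between them, and their differences had opposite signs.

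Il1rn encodes the interleukin-1 receptor antagonist. Its level was 7.21, 6.69 and 6.98 in Tet2-/-, against 7.40, 7.40 and 7.60 in wild-type. Again no Tet2-/- value reached the wild-type values, and replicate 5 of Tet2-/-, the highest array for Il1b, was the lowest for Il1rn. The log2 difference was -0.51 with a standard error of 0.162 (0.704-fold, 95% confidence interval -0.87 to -0.14, limma adjusted p = 0.998). Leaving out each array in turn gave -0.63 to -0.37 for Il1rn, -0.53 to -0.34 for Il1a and 0.405 to 0.995 for Il1b. The sign of Il1a and Il1rn could not change this way, because their groups did not overlap, and Il1b kept its sign.

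The upstream sequences of these 3 genes are shown because Tet2 acts on methylated CpG sites and because the 3 genes carry the differences above. They are the 250 bases before the annotated start in RefSeq (GRCm38.p6), 5′ to 3′ on the gene's strand, with CpG dinucleotides and the TATA box letters (TATAAA on the gene's strand) in capitals. The Il1a window is chr2:129309973-129310222 (minus strand), that of Il1b chr2:129371140-129371389 (minus strand) and that of the first of 3 annotated Il1rn starts chr2:24336610-24336859 (plus strand).
Il1a: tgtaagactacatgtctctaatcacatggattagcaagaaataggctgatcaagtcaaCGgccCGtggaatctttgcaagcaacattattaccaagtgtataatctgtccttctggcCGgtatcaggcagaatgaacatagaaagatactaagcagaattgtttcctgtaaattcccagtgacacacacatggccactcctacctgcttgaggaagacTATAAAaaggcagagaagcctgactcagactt
Il1b: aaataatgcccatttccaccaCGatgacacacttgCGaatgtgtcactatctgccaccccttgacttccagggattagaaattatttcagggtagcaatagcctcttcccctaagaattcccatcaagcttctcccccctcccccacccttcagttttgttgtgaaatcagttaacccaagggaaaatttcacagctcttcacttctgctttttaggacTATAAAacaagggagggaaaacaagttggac
Il1rn: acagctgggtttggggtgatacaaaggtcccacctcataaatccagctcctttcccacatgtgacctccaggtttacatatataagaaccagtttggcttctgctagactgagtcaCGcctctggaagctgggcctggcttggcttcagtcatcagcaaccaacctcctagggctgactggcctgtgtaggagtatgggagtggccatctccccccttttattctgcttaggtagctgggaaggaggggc

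All 3 windows held fewer CpG sites than the median of 6 over 32851 windows of the same length from all annotated starts. There were 3 for Il1a, 2 for Il1b and 1 for this Il1rn start. Such counts were common, since 37.8%, 29.0% and 18.8% of all windows held as few or fewer. The other 2 Il1rn windows, which overlap each other, held 4 each. Il18 had 1 and Il18bp 4, the 2 Il1r1 starts had 3 and 7, and Il1r2 had 14. Only Il1rap, with 30, had a CpG-dense window, and 94.8% of all windows held as few or fewer. Il1a and Il1b both carried TATAAA, at positions -32 to -27 and -31 to -26 from the start, a string found in 7.59% of all windows and in no other member's window. The AP-1 letters TGANTCA (both strands, 6.75% of windows) were found upstream of Il1a at -12 to -6 and of Il1rn at -141 to -135. The PU.1 core GAGGAA (both strands, 23.3%) was found upstream of Il1a. The NF-kB consensus (both strands, 3.9%) had a match at the second Il1r1 start, the E-box CACGTG (both strands, 6.02%) had 2 in Il1r2, and TGACGTCA, the cyclic AMP response element (both strands, 1.55%), had none in any member. These matches describe the printed window and say nothing of binding or methylation, which were not measured.

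The agonist and its antagonist were also set against each other within each array, where a shift of the whole array cancels. The log2 value of Il1b minus that of Il1rn was -3.56, -2.15 and -3.62 in Tet2-/-, against -3.97, -4.37 and -4.76 in wild-type. Because probe sets differ in brightness, the sign of these values has no meaning, and only their difference between groups does. All 3 Tet2-/- arrays were above all 3 wild-type arrays, and the group difference was 1.26 log2 units or 2.39-fold (exact permutation test, two-sided p = 0.1, the smallest that 3 against 3 arrays can give over 20 arrangements). It was 0.78 without Tet2-/- replicate 5. The pair was chosen with the earlier values of both genes known, so the separation is a description.

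Il1a relative to Il1rn gave -2.50, -2.20 and -2.64 in Tet2-/-, against -2.36, -2.42 and -2.80 in wild-type. The group difference was 0.08 (exact permutation p = 0.7). For Il18 relative to Il18bp the values were 2.43, 2.86 and 2.40 in Tet2-/-, against 2.48, 2.55 and 2.20 in wild-type, a difference of 0.15 (exact permutation p = 0.6). Adjusted over the 3 pairs, the exact permutation p-values were 0.3 for Il1b with Il1rn and 0.7 for the other 2 pairs.

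**Figure D2:**
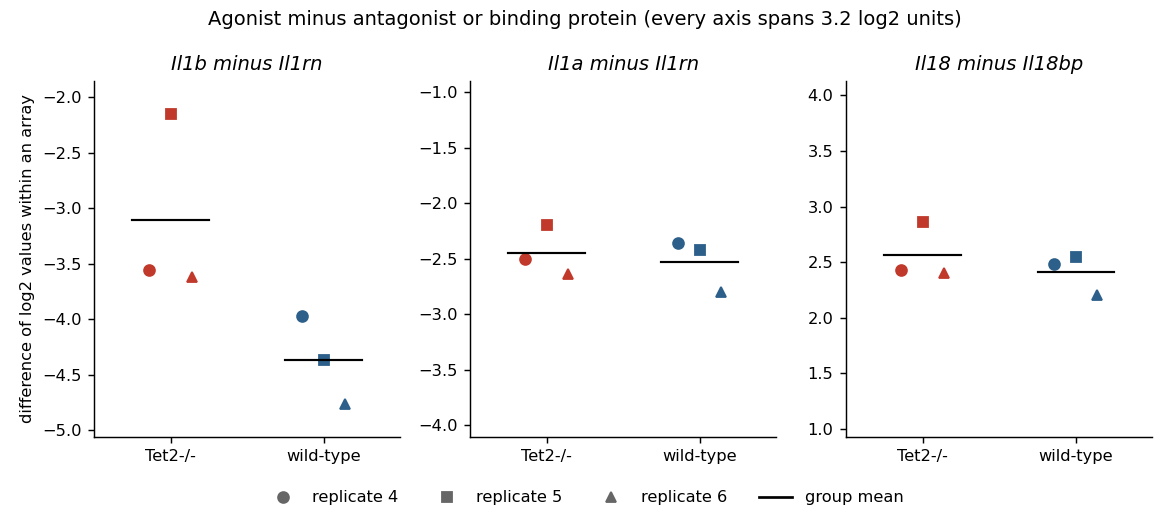
Within-array difference of log2 values for 3 pairs, 1 point per array, with Tet2-/- left of wild-type, marker shape for the replicate number and a bar for the group mean. The groups are apart for Il1b minus Il1rn (Tet2-/- -3.62 to -2.15, wild-type -4.76 to -3.97) and overlap for the other 2 pairs.

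Il18 and its binding protein showed small differences. Il18, a cytokine that macrophages store as a precursor, was at 5.42, 5.81 and 5.59 in Tet2-/-, against 5.42, 5.44 and 5.48 in wild-type. The wild-type arrays were close together (SD 0.0306), and the Tet2-/- arrays had an SD of 0.196. Its difference was 0.16 (95% confidence interval from -0.16 to 0.48), and 0.06 without Tet2-/- replicate 5. Il18bp was at 2.99, 2.95 and 3.19 in Tet2-/-, against 2.94, 2.89 and 3.28 in wild-type. Replicate 6 was the highest in both groups, and the difference was 0.0067 (95% confidence interval -0.34 to 0.35).

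Among the receptors, Il1r1 varied most between arrays of the same genotype. It was at 7.10, 6.14 and 6.17 in Tet2-/-, against 6.30, 5.93 and 6.75 in wild-type, and the groups overlapped. Its difference was 0.14 (95% confidence interval from -0.51 to 0.80) with no stable sign, being -0.17 if Tet2-/- replicate 4 was left out and -0.055 if wild-type replicate 5 was. The decoy receptor Il1r2 was at 2.11, 2.26 and 2.28 in Tet2-/-, against 2.68, 2.01 and 2.34 in wild-type. It was the 1 member whose mean lay below the median of all probe sets, and its difference of -0.13 (95% confidence interval -0.53 to 0.28) was 0.04 without wild-type replicate 4. The shared chain Il1rap was at 3.97, 4.28 and 3.72 in Tet2-/-, against 4.30, 4.02 and 3.92 in wild-type. Its difference was -0.09 (95% confidence interval -0.49 to 0.31), which was 0.02 without wild-type replicate 4 and 0.045 without Tet2-/- replicate 6.

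**Figure D3:**
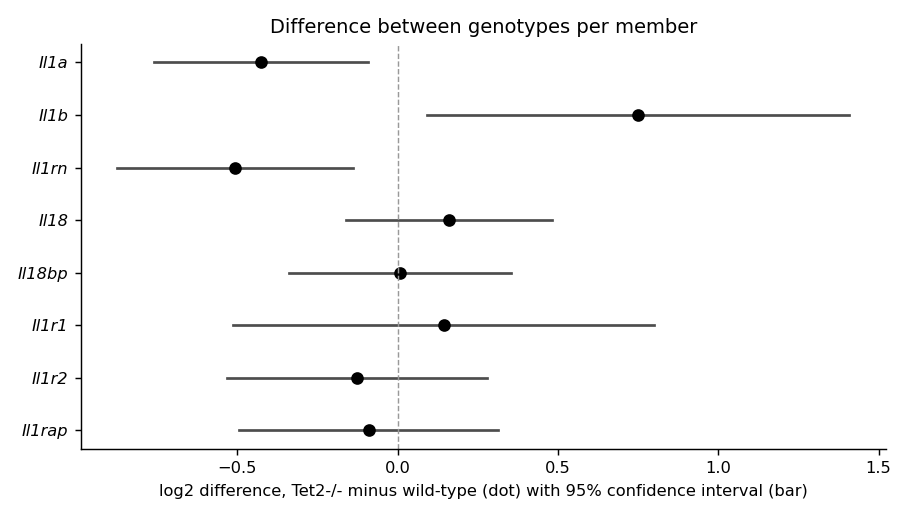
Log2 difference, Tet2-/- minus wild-type, for each member (dot) with the 95% confidence interval of the limma fit (bar). The intervals of Il1a, Il1b and Il1rn lie to one side of 0 before adjustment over all probe sets, and the other 5 span 0, with Il1b and Il1r1 the widest.

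Across the 6 arrays, Il1b and Il1rn ran in opposite directions (Pearson r = -0.88, exact permutation p = 0.0222, adjusted over 28 member pairs 0.467). Spearman's rho was -0.78 (exact permutation p = 0.0778, adjusted 0.970). The relation rested on 2 arrays, since r was -0.33 without Tet2-/- replicate 5 and wild-type replicate 6, and it was -0.76 on deviations from the group means. For Il1a and Il1rn, r was 0.77 (exact permutation p = 0.075, adjusted 0.576) and rho 0.75 (exact permutation p = 0.111, adjusted 0.970), with 0.83 after leaving out Tet2-/- replicate 6 and wild-type replicate 4. Within genotypes that value was 0.19, so the shared pattern of Il1a and Il1rn lay mainly in the difference between groups. None of the 28 pairs had an adjusted p below 0.05.

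Genes with the most similar pattern were sought among 4464 named probe sets at or above the median level whose SD over the 6 arrays was at least 0.25. Likeness was Pearson's r over the 6 arrays, given as a description because the genes were picked for it. The 4 nearest Il1b were Klra2, a killer-cell lectin-like receptor gene (r = 0.999), Tlr2, a receptor for bacterial lipopeptides (0.995), Hp, the haemoglobin-binding haptoglobin (0.994), and Gm10052 (0.993). Klra2 was at 5.23, 6.34 and 4.81 in Tet2-/-, against 4.84, 4.40 and 4.12 in wild-type, the same order of arrays as Il1b. Nearest to Il1a were Slc29a1, a nucleoside transporter (0.988), Acss1, a mitochondrial acetyl-CoA synthetase (0.981), Fbxl2 (0.974) and Mxi1, a Myc antagonist (0.970). The genes closest to Il1rn were Aprt, an adenine salvage enzyme (0.992), Tm4sf19 (0.987), Cdk20 (0.982) and the prokineticin receptor Prokr1 (0.978). Of these 12 genes, the 4 most like Il1b had positive differences and the other 8 negative ones, which follows from how they were picked. None of the 12 passed the adjusted threshold.

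Markers of other cells moved with some members. The list of 10 genes of resident large peritoneal macrophages, among them Alox15 and Icam2, had mean log2 levels of 5.70, 6.11 and 4.44 in Tet2-/-, against 4.98, 4.40 and 4.51 in wild-type, and 9 of the 10 were higher on average in Tet2-/-. Alox15 and Icam2 differed by 2.08 and 1.06, Gata6 by 0.35 and Garnl3, the lower gene, by -0.11. Groups overlapped for all 10, where 7.41% of all probe sets were apart. Il1b followed this list across arrays (r = 0.90, exact permutation p = 0.00833, adjusted over 80 relations of lists and members 0.333). Spearman's rho was 0.83 (exact permutation p = 0.0583, adjusted 0.824), and r was 0.57 without Tet2-/- replicates 4 and 5 and 0.84 on deviations from the group means. The relation was not particular to that list. For Il1b and the general macrophage list, r was 0.70 (exact permutation p = 0.0903, adjusted 0.516) and rho 0.77 (exact permutation p = 0.103, adjusted 0.824). There r was 0.94 without Tet2-/- replicates 5 and 6 and 0.82 on deviations from the group means. The B-cell list had 3.72, 4.36 and 3.00 in Tet2-/-, against 2.96, 2.99 and 3.15 in wild-type, with 8 of 9 measured genes higher. The ninth, Cd22, had the smallest p of the list and ran the other way, at 5.50, 5.29 and 5.23 in Tet2-/-, against 6.21, 6.15 and 6.07 in wild-type (difference -0.80, limma adjusted p = 0.483). For Il1b and that list r was 0.88 (exact permutation p = 0.0306, adjusted 0.420) and rho 0.49 (exact permutation p = 0.356, adjusted 0.904). There r was -0.80 without Tet2-/- replicates 4 and 5 and 0.79 on deviations from the group means. The part of these cells in the Il1b difference was not tested. In such mixed samples, more cells of a type and more RNA per cell cannot be told apart.

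Neutrophils, another source of Il1b and Il1r2 RNA, had list means of 3.29 to 3.44 in Tet2-/- and 3.17 to 3.31 in wild-type, and only 3 of 10 markers lay above the median probe set. Those 3 were S100a8 (5.79 to 7.19 in Tet2-/-, 6.22 to 6.43 in wild-type), the receptor gene Csf3r (6.16 to 6.98 in Tet2-/-, 6.20 to 6.68 in wild-type) and the granule collagenase Mmp8 (5.26 to 6.63 in Tet2-/-, 5.96 to 6.28 in wild-type). The granule genes Ltf, Ngp and Camp were lower, at 1.24 to 2.91 in Tet2-/- and 1.29 to 2.95 in wild-type. Of the 10 markers, 7 were higher and 3 lower on average in Tet2-/-, and all had an unadjusted p above 0.05. The part of neutrophils in the Il1b and Il1r2 values was not tested. The T-cell, natural killer cell, mast cell and dendritic cell lists had means of 1.92 to 2.41 in Tet2-/- and 1.88 to 2.29 in wild-type. Il1r1, which fibroblasts and mesothelial cells also express, followed the list of 9 markers of those cells. That list stood at 5.07, 4.78 and 4.81 in Tet2-/-, against 4.64, 4.53 and 5.18 in wild-type. The 2 arrays with the highest list means, wild-type replicate 6 and Tet2-/- replicate 4, were also the 2 with the most Il1r1. There r was 0.86 (exact permutation p = 0.0333, adjusted 0.420) and rho 0.77 (exact permutation p = 0.103, adjusted 0.824), with 0.47 when those 2 arrays were left out and 0.86 on deviations from the group means. Dcn, a collagen-binding proteoglycan of fibroblasts, was at 7.64 and 7.78 on those 2 arrays and at 6.62 to 6.94 on the other 4. Pdgfra, Col1a2, Upk3b and Msln were also highest on those 2 arrays, but Col1a1, Col3a1, Lrrn4 and Krt19 were not. Col1a1 was at 6.69 in Tet2-/- replicate 4 and 6.90 in Tet2-/- replicate 6, and Col3a1 at 5.87 and 6.04. The part of stromal cells in the Il1r1 spread was not tested.

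**Figure D4:**
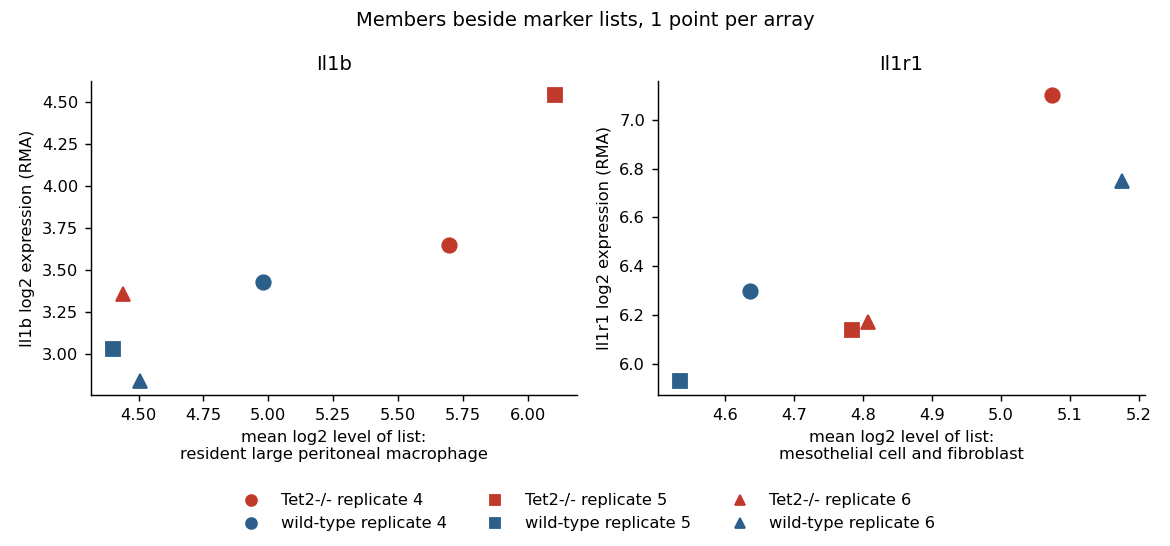
Left, Il1b against the mean log2 level of the resident large peritoneal macrophage list, and right, Il1r1 against that of the mesothelial cell and fibroblast list, 1 point per array, coloured by genotype and shaped by replicate. Tet2-/- replicate 5 is highest on both axes at left, and Tet2-/- replicate 4 and wild-type replicate 6 stand above the others on both axes at right.

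The rest of the family differed little. Of 13 further family genes, 11 were measured, 6 higher and 5 lower in Tet2-/-, with differences from -0.19 to 0.19 and a median of 0.03. None passed the adjusted test and 0 had an unadjusted p under 0.05, against 3.61% of all probe sets. Only 2 of the 11 lay above the median level. Il33, an alarmin of stromal cells, was at 3.43, 3.25 and 3.19 in Tet2-/-, against 3.13, 3.01 and 3.16 in wild-type, so the groups did not overlap. The groups were also apart for Il1f8, a dim probe set at 1.30 to 1.44 in Tet2-/- and 1.22 to 1.29 in wild-type. These 2 of 11 stand against 3.33% of all probe sets apart with Tet2-/- higher. Il1rl2, the receptor of interleukin-36, was at 4.70, 4.41 and 3.96 in Tet2-/-, against 4.50, 4.69 and 4.42 in wild-type. The interleukin-18 receptor chains Il18r1 and Il18rap had means of 1.74 and 1.90 in Tet2-/-, against 1.93 and 1.73 in wild-type. The interleukin-36 genes Il1f6, Il1f8 and Il1f9, the cytokine gene Il1f10, the inhibitory receptor Sigirr and the accessory-protein-like Il1rapl1 and Il1rapl2 had group means of 2.17 or less. Il1r2, Il1r1, Il1rl2, Il1rl1, Il18r1 and Il18rap follow one another on chromosome 1 with 0 protein-coding genes between neighbours, and of the 5 measured there, 2 were higher and 3 lower in Tet2-/-.

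None of the 18 measured genes of the signalling chain below the receptor passed. Of them, 14 were higher and 4 lower (median difference 0.19), with 0 at an unadjusted p under 0.05, against 3.61% of all probe sets. Myd88, the adaptor, was at 7.42, 7.02 and 6.45 in Tet2-/-, against 6.69, 6.48 and 6.77 in wild-type, so replicate 6 was the lowest of all 6 arrays. The ubiquitin ligases Peli1 and Peli2 differed by 0.29 and 0.27, and Tollip, which restrains receptor signalling, by -0.21. Among 19 genes of cytokine processing and release, 12 were higher and 7 lower (median 0.10). Ninj1, which ruptures the membrane of dying cells, was the 1 of 19 with an unadjusted p under 0.05, against 3.61% of all probe sets. Its level was 8.15, 7.86 and 7.97 in Tet2-/-, against 8.40, 8.42 and 8.28 in wild-type (difference -0.37, limma adjusted p = 0.998). The inflammasome sensor Nlrc4, the pore former Gsdmd and the ATP-gated channel P2rx7 differed by 0.36, 0.27 and -0.31. Groups did not overlap for 1 gene on the higher side, Gsdmd, and 1 on the lower, Ninj1. The shares over all probe sets were 3.33% and 4.07%.

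Regulators of Il1a and Il1b transcription were 12 higher and 8 lower of 20 measured (median 0.07). Atf3, a repressor of cytokine genes, had the smallest p of that list and was at 9.39, 9.15 and 9.39 in Tet2-/-, against 9.68, 9.84 and 9.80 in wild-type (difference -0.46, limma adjusted p = 0.998). Atf3 was the 1 of the 20 with an unadjusted p under 0.05, against 3.61% of all probe sets. Groups did not overlap for 1 gene on the lower side, Atf3, and 1 on the higher, Nfkbia. The shares over all probe sets were 4.07% and 3.33%. Nfkb2 and Nfkbia, a subunit and an inhibitor of NF-kB, differed by 0.41 and 0.24, and the AP-1 subunit Fos by -0.35. Of 26 interleukin-1 responsive genes, which include Il1a and Il1b themselves, 14 were higher, 11 lower and 1 equal (median 0.05). At an unadjusted p under 0.05 there were 4 on the higher side and 2 on the lower, Il1b and Il1a among them, against 1.71% and 1.9% of all probe sets. Groups did not overlap for 4 on the higher and 3 on the lower side, against 3.33% and 4.07%. Nfkbia, already counted among the regulators, is among the 4, and the member Il1a is among the 3. The list was chosen with earlier results of these data known, so these counts are a description. Icam1, an adhesion molecule, was at 5.78, 5.85 and 5.53 in Tet2-/-, against 5.31, 5.15 and 4.98 in wild-type (difference 0.57, limma adjusted p = 0.998). Cxcl2, a neutrophil attractant, differed by 0.85, the feedback inhibitor Socs3 by 0.34 and the plasminogen activator Plau by -1.14 (limma adjusted p = 0.483).

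The contradicting labels bear on every difference above. With groups taken from the genotype characteristic, Il1b averaged 3.47 in Tet2-/- and 3.48 in wild-type, Il1a 4.76 and 4.70, and Il1rn 7.23 and 7.20. The 3 differences were then -0.01, 0.06 and 0.03, each opposite in sign to that by title. These values do not settle which label is right.

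**Figure D5:**
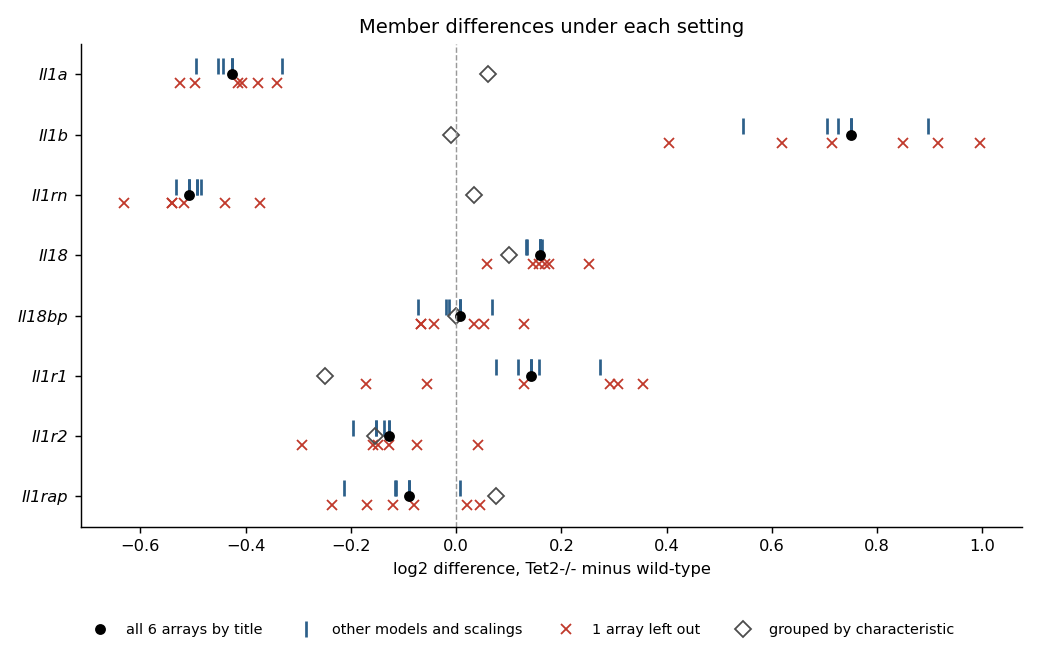
Log2 difference, Tet2-/- minus wild-type, of each member under every setting: all 6 arrays by title (dot), other models and scalings (bars), 1 array left out (crosses) and groups taken from the characteristic (diamonds). Il1b and Il18 keep their sign whichever array is left out, as Il1a and Il1rn must with groups that do not overlap. The Il1a, Il1b and Il1rn diamonds lie within 0.06 of 0.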

How the data were processed

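RNA from 6 macrophage samples was profiled on Affymetrix arrays. The deposited values are log2 expression per probe set, which the submitters' processing notes credit to RMA (affy 1.36.1). This method is designed to correct background and equalise array distributions, and it compresses differences of dim genes. The deposited values were not fully equal in distribution, with array medians from 2.77 to 2.93 and interquartile ranges from 2.99 to 3.33. The log2 scale was read from the values, and no source used here names the probe definition or genome build. Array scanner files were not used here, and 3 arrays per group limit the precision. The platform annotation named 23185 of 25206 probe sets.

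R 4.3.3 with limma 3.58.1 gave the moderated two-sided test (lmFit, then eBayes) over all 25206 probe sets, with Benjamini-Hochberg adjustment, a threshold of 0.05 and no covariate. The script was tested on simulated data. Within-array differences and correlations used exact permutation tests in Python. Named genes were the 8 members, Tet2, all measured further family genes, the 4 with the smallest p in each pathway list, and the 4 nearest Il1a, Il1b and Il1rn in pattern. Markers were named as examples of their lists, some after their values were seen, and the pairing of marker lists with members was chosen after seeing the data. Members and lists were chosen with earlier results of these data known. Among the listed genes, Il36rn, Il1rl1, Irak4, Chuk, Nfkb1, Lyz2 and Lck were not analysed here. Promoter sequences and gene order come from RefSeq (GRCm38.p6). No pair of arrays held equal values at more than 2.42% of probe sets. Whether the shared replicate numbers pair the samples could not be decided. Deviations of same-numbered samples correlated at 0.15, -0.22 and 0.11. Those of differently numbered samples ran from -0.36 (Tet2-/- replicate 6 with wild-type replicate 4) to 0.36 (Tet2-/- replicate 5 with wild-type replicate 4). With so few arrays such values cannot tell pairing from its absence.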

Additional observations from a re-analysis of the deposited data

How the results depend on the processing

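By title, Il1a, Il1b, Il1rn and Il18 kept their sign under every setting that kept those groups, and 0 of the 8 members passed an adjusted p of 0.05 under any setting. Some settings could not move a difference. The replicate block is balanced, and others altered only the variances, the probe sets tested or the threshold. Leaving out 1 array could not reverse Il1a or Il1rn either, since their groups did not overlap. With groups from the characteristic the differences were 0.06 for Il1a, -0.01 for Il1b, 0.033 for Il1rn, -0.25 for Il1r1, 0.077 for Il1rap and -0.043 for Il1b minus Il1rn, and 0 members had an unadjusted p under 0.05. Leaving out each array gave -0.067 to 0.13 for Il18bp, -0.17 to 0.355 for Il1r1, -0.29 to 0.042 for Il1r2, -0.235 to 0.045 for Il1rap and -0.057 to 0.18 for Il1a minus Il1rn. It gave 1 to 3 members at an unadjusted p under 0.05. Over all probe sets it gave 0 to 19 passing, 19 without Tet2-/- replicate 6. Array weights gave -0.072 for Il18bp, 0.0069 for Il1rap and 2 probe sets passing. Il18bp was -0.018 with median-centred arrays and -0.013 with a further quantile normalization. With a block for deposit order (earlier against later 3 arrays), Il1a minus Il1rn was -0.01 and Il1b 0.545. The cause of these changes was not tested. With the replicate block, 0 probe sets and 0 members passed and 3 members had an unadjusted p under 0.05. The Il1b difference stayed at 0.75, as a balanced block requires. Dim probe sets such as Il1r2 are limited by signal over background, which could not be read from these values.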

Other observations

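The eosinophil list of 5 genes followed Il1rn across the 6 arrays (r = 0.95, exact permutation p = 0.00833, adjusted over 80 relations 0.333), with rho = 0.81 (exact permutation p = 0.0722, adjusted 0.824) and r = 0.54 without Tet2-/- replicates 5 and 6. The relation was not particular to Il1rn. With Il18 r was -0.96 (exact permutation p = 0.0222, adjusted 0.420), with Il1b -0.83 (p = 0.0528, adjusted 0.422) and with Il1a 0.815 (p = 0.0458, adjusted 0.420). Without the same 2 arrays these were 0.30, -0.70 and 0.76. Siglecf, which some macrophages also carry, was the 1 gene of that list above the median probe set, at 4.65, 3.58 and 4.12 in Tet2-/-, against 5.37, 5.58 and 5.02 in wild-type. The other 4 were the granule genes Epx and Prg2 and the receptor gene Ccr3, at 1.04 to 2.07 in Tet2-/- and 1.14 to 2.04 in wild-type, and Il5ra, which ran the other way at 1.77, 2.02 and 1.73 in Tet2-/-, against 1.58, 1.44 and 1.68 in wild-type. Of the 5 genes, 2 were higher and 3 lower in Tet2-/-, and Siglecf carried the lower list mean. Tet2-/- replicate 5 was the lowest array for both Siglecf and Il1rn.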
